A study of Rattus norvegicus with 30 samples.

Results

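Male rats lacking the constitutive androstane receptor (CAR KO rats) were compared with male Crl:CD(SD) rats (SD rats, an outbred stock) after both had eaten a diet with 1000 ppm phenobarbital (PB) for 7 days. The comparison holds the 4 liver arrays titled as CAR KO rats on PB and the 4 titled as SD rats on PB, 8 of the 30 arrays of the series. The same comparison on control diet (0 ppm PB), with 4 CAR KO and 4 SD arrays, is set beside it for many of the genes and lists. Where no control-diet value is given, a difference on PB may also be present on control diet. The study asked how liver gene expression responds to PB in different animal models, and its 14 arrays of chimeric mice with rat hepatocytes were not used in the comparison. Labels name the animals as male and the tissue as liver, and the protocols give 4 to 7 animals per dose and call each array a biological replicate. The sources used here do not give the age of the animals, how and over what extent the gene was deleted, or the strain background of the CAR KO line. Whatever else separates that line from the SD stock, besides CAR, is therefore part of every difference below.

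CAR, encoded by Nr1i3, is a nuclear receptor of hepatocytes that waits in the cytoplasm until drugs such as PB release it to the nucleus. There it pairs with the retinoid X receptor and switches on genes for drug oxidation, conjugation and export, of which the Cyp2b cytochrome P450 genes respond most strongly. The related pregnane X receptor (PXR, Nr1i2) shares many of these targets, above all in the Cyp3a family. In rodents PB also enlarges the liver and promotes liver tumours, effects long tied to CAR.

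The binding partners of this receptor family read short DNA words such as AGGTCA and AGTTCA. The 250 bases before the RefSeq gene start (GRCr8) are printed for 4 genes that were lower in CAR KO on PB and called in the difference between diets, the close relatives Cyp2b2 and Cyp2b21, then Cyp3a23-3a1 and Cyp26a1. Cyp2b2 lies on the plus strand at chr1:90722031-90722280 and Cyp2b21 on the minus strand at chr1:91042753-91043002. Cyp3a23-3a1 lies on the minus strand at chr12:14398804-14399053 and Cyp26a1 on the plus strand at chr1:244883572-244883821. Capitals mark AGGTCA or AGTTCA on either strand.
Cyp2b2: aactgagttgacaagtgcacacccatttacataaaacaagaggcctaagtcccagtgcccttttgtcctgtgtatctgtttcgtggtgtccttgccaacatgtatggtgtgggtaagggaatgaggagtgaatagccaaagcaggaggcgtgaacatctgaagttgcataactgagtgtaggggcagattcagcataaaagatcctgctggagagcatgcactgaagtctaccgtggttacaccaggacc
Cyp2b21: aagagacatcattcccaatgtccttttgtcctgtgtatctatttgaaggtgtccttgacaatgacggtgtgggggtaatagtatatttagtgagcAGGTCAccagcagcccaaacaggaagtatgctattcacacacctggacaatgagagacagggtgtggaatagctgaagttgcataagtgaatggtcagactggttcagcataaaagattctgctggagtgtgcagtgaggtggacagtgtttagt
Cyp3a23-3a1: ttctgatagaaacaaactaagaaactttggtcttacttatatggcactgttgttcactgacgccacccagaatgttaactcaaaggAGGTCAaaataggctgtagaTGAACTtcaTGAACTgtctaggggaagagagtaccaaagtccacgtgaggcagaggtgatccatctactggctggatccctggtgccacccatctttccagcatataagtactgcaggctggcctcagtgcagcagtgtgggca
Cyp26a1: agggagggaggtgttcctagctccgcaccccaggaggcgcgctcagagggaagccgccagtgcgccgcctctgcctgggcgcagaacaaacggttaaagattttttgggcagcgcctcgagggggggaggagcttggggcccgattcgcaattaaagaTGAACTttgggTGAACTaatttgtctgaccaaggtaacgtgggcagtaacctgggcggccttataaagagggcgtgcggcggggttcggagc
The window of Cyp3a23-3a1 held 3 matches, among them TGAACTtcaTGAACT, a direct repeat spaced by 3 bases, the spacing known for PXR elements in Cyp3a genes. In Cyp26a1 the match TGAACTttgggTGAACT is a direct repeat spaced by 5 bases, the spacing known for retinoic acid elements. Cyp2b2 held no match in this window, and the known PB-responsive enhancer of Cyp2b genes lies further upstream. AGGTCA on either strand occurred in 13.7% of all 27457 promoter windows of this length and AGTTCA in 12.1%. A direct repeat of AGNTCA on either strand occurred in 0.0583% of them with a spacing of 3 bases, 0.0546% with 4 and 0.0838% with 5. Of 48 genes with a symbol that were lower in CAR KO on PB and also called in the difference between diets, 41 had a window, and AGGTCA occurred in 12 of these (29.3%) and AGTTCA in 7 (17.1%). The repeats spaced by 3 and by 5 bases each occurred in 1 of these 41 windows, and the repeat spaced by 4 bases in 0. Of 11 genes higher in both, 7 had a window, with AGGTCA in 1 (14.3%) and AGTTCA in 2 (28.6%). Among promoters of all genes tested on PB the shares were 11.4% and 8.69%. Both sets were chosen by their values, and a match or its absence describes the letters of this window only.

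Levels are given as log2 of the scanner's processed signal minus the array's 75th percentile, so 0 is the brightness below which 75% of probes lie. A difference is the CAR KO mean minus the SD mean on that scale, with its standard error. Each was tested with limma in a fit of the 16 rat arrays, with adjusted p under 0.05 as a call. The 4 arrays of each group correlated with each other across probes at 0.9867 to 0.9936, and CAR KO with SD arrays on PB at 0.9774 to 0.9823. The 75th percentile of signal was 503 ± 52.9 on CAR KO PB arrays and 436 ± 6.56 on SD PB arrays, and 62.7% ± 1.81 against 59.8% ± 0.868 of probes stood well above background (SD, n = 4 each). All 8 CAR KO arrays lay on 1 slide and all 8 SD arrays on another, so model and slide cannot be told apart in either comparison. An offset between slides that is the same on both diets cancels in the test of the PB difference minus the control-diet difference. Within each slide the diets lay in separate rows, so row and diet cannot be told apart either.

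On PB the livers differed widely. Of 16582 genes and unnamed transcripts tested, 6978 (42.1%) were called, 2808 higher in CAR KO (16.9%) and 4170 lower (25.1%). The difference was at least 2-fold for 1128 of them, 776 higher and 352 lower. On control diet 6038 of 17724 (34.1%) were called, 2547 higher (14.4%) and 3491 lower (19.7%). There the difference was at least 2-fold for 992, 863 higher and 129 lower, so this lean to higher was present without PB too. Of 16494 tested on both diets, 4251 were called in the same direction on both, 61.4% of the PB calls and 73.4% of the control-diet calls. The PB and control-diet comparisons share slides but no array. The difference between the diets was called for 95 of 17812 (0.533%), 19 higher (0.107%) and 76 lower (0.427%), and 88 of these were also called on PB. That test uses the PB arrays again. With all 30 arrays sharing an estimate of the spread, the counts were 2925 on PB, 2120 on control diet and 39 for the difference. The share of higher calls on PB, 40.2%, was 48.9% in that fit, 31.9% after normexp background correction and 30.2% with no filter on dim probes.

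**Figure D1:**
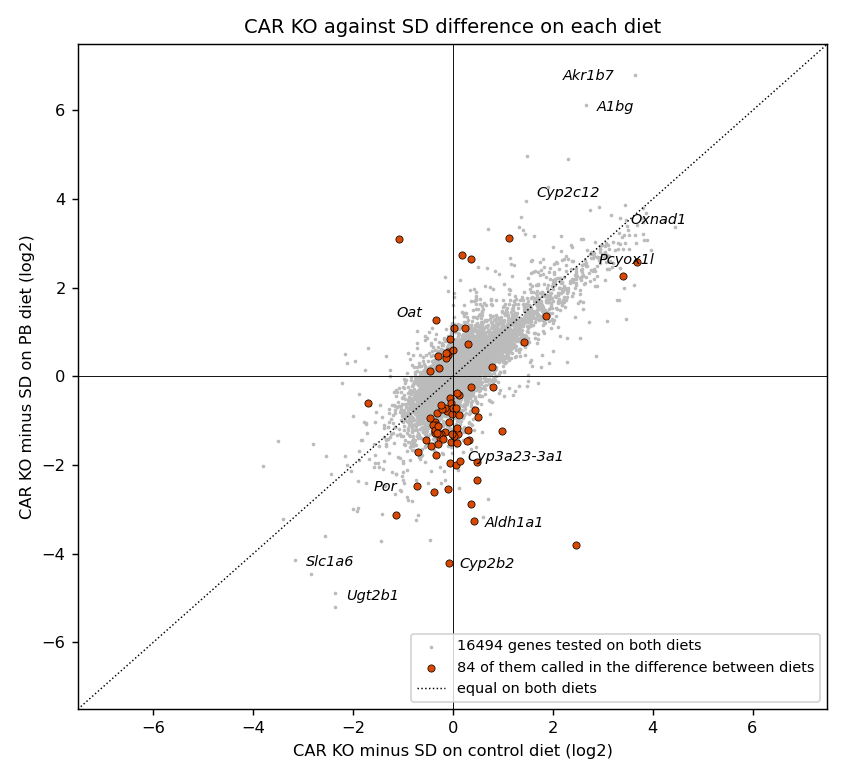
CAR KO minus SD differences (log2) on control diet (horizontal) and PB diet (vertical) for the 16494 genes tested on both, grey, with the 84 of them called in the difference between diets in orange and a dotted line where both are equal. Cyp2b2, Aldh1a1, Por and Cyp3a23-3a1 lie below it and Oat above it.

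The transcript of the targeted gene was not called as different on PB. Nr1i3 levels on PB were 0.50, -0.21, 1.04 and 1.15 on the CAR KO arrays and 0.31, 1.03, 0.62 and 0.24 on the SD arrays, with overlap. The difference was 0.07 ± 0.302 (adjusted p = 0.867), and a second probe gave 0.35 ± 0.333. The sources used here do not say where either probe lies relative to the deletion, so these levels do not check the labels. Nr1i2, encoding PXR, differed by -0.12 ± 0.0958 (adjusted p = 0.349). Of the 10 protein-coding genes annotated on each side of Nr1i3, 18 were tested, and 3 were higher and 4 lower on PB (38.9% called, against 42.1% of all genes).

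Among 31 nuclear receptors and partners tested, 4 were higher and 4 lower on PB, with a median difference of -0.04 against -0.06 over all genes. The share called, 25.8%, lay below the 42.1% of all genes. The glucocorticoid receptor Nr3c1 was higher by 1.39 ± 0.144 (adjusted p = 4.5e-06) and the retinoid X receptor Rxrg by 0.86. A second probe of Nr3c1 differed by 0.57. Nr0b2 (SHP), a repressor induced by bile acids, was lower, with a difference of -1.68 ± 0.568 (adjusted p = 0.028). That call was lost without CAR KO PB replicate 3 or 4 or SD PB replicate 2 or 4, with adjusted p of 0.0596 to 0.0782, and with all 30 arrays in the fit (0.0833). The lower count was 2 without SD PB replicate 2 and 1 with all 30 arrays in the fit, where 9.02% of all genes were lower.

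The Cyp2b genes, the classic CAR targets, lay far lower in CAR KO livers on PB. Cyp2b2, whose product oxidises drugs and steroids, read 2.65, 2.72, 2.83 and 2.91 on the CAR KO PB arrays and 6.89, 7.11, 7.35 and 6.56 on the SD PB arrays. All CAR KO PB arrays lay below all SD PB arrays and near the control-diet arrays of both models, which ran from 2.74 to 3.21. The difference was -4.20 ± 0.138 on PB (18.4-fold lower, adjusted p = 3.54e-11) and -0.08 ± 0.138 on control diet (adjusted p = 0.687). The second probe of the gene gave a larger difference, -7.83 ± 0.291 on PB and -0.71 ± 0.291 on control diet. Probes of this family can bind transcripts of near-identical paralogs, so the share of each Cyp2b gene is uncertain. Cyp2b21 read -6.83, -7.32, -5.33 and -7.26 in the CAR KO PB group, against 2.01, 2.20, 2.64 and 1.54 in the SD PB group, and 1 of the CAR KO PB arrays was well above background. Its difference was -8.78 ± 0.532 (adjusted p = 1.47e-08), a size that rests in part on signals near background and was -5.18 after normexp background correction. The difference between diets was called for both, with adjusted p of 9.07e-08 for Cyp2b2 and 0.000677 for Cyp2b21.

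The Cyp3a genes, whose products metabolise steroids and many drugs, were lower too. Cyp3a23-3a1 read 5.05, 5.31, 5.72 and 5.61 on the CAR KO PB arrays and 7.27, 7.78, 7.43 and 7.23 on the SD PB arrays, with no overlap. The difference was -2.0 ± 0.193 (4.0-fold lower, adjusted p = 2.3e-06), against 0.07 ± 0.193 on control diet. Cyp3a2, which in rats is expressed mainly in males, read 4.96, 5.68, 6.56 and 6.16 against 8.54, 8.37, 8.62 and 8.49. It differed by -2.66 ± 0.376 on PB (adjusted p = 8.01e-05) and by -1.16 ± 0.378 on control diet (adjusted p = 0.0284), and the difference between diets was not called (adjusted p = 0.256). On control diet that call was lost without CAR KO control replicate 3 or SD control replicate 1, 2 or 3 (adjusted p of 0.052 to 0.0813). Of 18 CAR- and PXR-responsive P450 genes tested, 12 were lower (66.7%) and 1 higher on PB, against 25.1% and 16.9% of all genes. Their median difference was -0.96. On control diet 4 were lower and 0 higher, with a median of -0.31. The member that was higher was Cyp2c23, an arachidonic acid epoxygenase (0.30, adjusted p = 0.0415). Its call was lost on leaving out any of 6 arrays (adjusted p of 0.0501 to 0.124). Cyp1a2 (-0.16 ± 0.187) and Cyp2e1 (0.34 ± 0.197), which are not known as main CAR targets, were not called (adjusted p = 0.524 and 0.176).

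Of 16 genes that supply P450s with electrons and heme, 9 were lower in CAR KO on PB and 1 higher, against 25.1% lower and 16.9% higher over all genes. Por encodes the reductase that passes electrons to every microsomal P450. It read 0.70, 0.46, 0.67 and 0.62 on the CAR KO PB arrays and 2.59, 3.22, 3.61 and 2.94 on the SD PB arrays. The groups did not overlap, and the difference was -2.47 ± 0.175 on PB (5.56-fold lower, adjusted p = 8.58e-08). On control diet it was -0.73 ± 0.176 (adjusted p = 0.0057), and the difference between diets was -1.75 ± 0.249 (adjusted p = 0.00461). Cyb5a, the cytochrome b5 that can supply the second electron, differed by -1.11 ± 0.101 on PB and -0.50 on control diet. Alas1, which catalyses the first and rate-limiting step of heme synthesis, read 5.42, 5.90, 5.85 and 6.29 against 6.65, 6.74, 6.75 and 6.37. The groups lay apart by a small margin, with a difference of -0.77 ± 0.197 (adjusted p = 0.00638) on PB and 0.16 ± 0.198 (adjusted p = 0.567) on control diet. The median of these 16 genes was -0.32 on PB, and on control diet 7 were lower and 0 higher with a median of -0.16. The PB counts were 5 lower and 0 higher with all 30 arrays in the fit, where 9.02% of all genes were lower, and the control-diet call of Por was lost there (adjusted p = 0.361).

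Of 30 epoxide hydrolases, esterases, reductases and aldehyde dehydrogenases tested, 15 were lower and 2 higher on PB, against 25.1% and 16.9% of all genes. Ephx1, the microsomal epoxide hydrolase, read 4.22, 4.02, 3.99 and 4.03 on the CAR KO PB arrays and 5.60, 5.70, 5.57 and 5.32 on the SD PB arrays. Its difference was -1.48 ± 0.162 on PB (adjusted p = 7.89e-06) and -0.04 ± 0.163 on control diet. Aldh1a1, which oxidises retinaldehyde to retinoic acid, read 2.83, 2.86, 2.97 and 2.35 against 6.29, 6.15, 6.06 and 5.59, groups far apart. The difference was -3.27 ± 0.45 on PB (9.65-fold lower, adjusted p = 6.45e-05) and 0.43 ± 0.453 on control diet (adjusted p = 0.49). The carboxylesterase gene Ces2c read 1.32, 0.37, 0.19 and 0.55 against 2.81, 3.61, 3.06 and 2.30 (-2.34 ± 0.272, adjusted p = 1.42e-05). The CAR KO PB arrays of Ces2c still lay above every control-diet array, which ran from -1.19 to 0.04. The list's median was -0.41 on PB, and on control diet 6 of 31 were lower and 1 higher (median -0.04). The 2 higher on PB were Akr1b7, described below, and Akr1c15 (0.36), whose call was lost on leaving out any of 4 arrays and with all 30 arrays in the fit (adjusted p of 0.0554 to 0.477).

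Conjugation enzymes differed by family, with glucuronidation genes lower on both diets and sulfation genes going both ways. Over all genes 25.1% were lower and 16.9% higher on PB, and 19.7% and 14.4% on control diet. Ugt2b1, a glucuronosyltransferase, read 3.36, 2.33, 1.23 and 1.22 on the CAR KO PB arrays and 6.84, 7.09, 7.13 and 6.60 on the SD PB arrays. It was 29.5-fold lower on PB (-4.88 ± 0.404, adjusted p = 5.04e-07) and differed by -2.36 ± 0.406 on control diet (adjusted p = 0.000544). The difference between diets was -2.52 ± 0.575 and was not called (adjusted p = 0.0755). Of 11 glucuronidation genes 9 were lower on PB (median -0.79) and 9 on control diet (median -0.52), with 0 higher on either. Glutathione transferases gave 10 lower and 1 higher of 22 on PB (median -0.22), led by Gstm3 (-3.24 ± 0.486) and Gstm1 (-1.39 ± 0.135), and 5 lower and 0 higher on control diet. The PB counts were 6 lower and 0 higher with all 30 arrays in the fit. Of 16 sulfation and other conjugation genes 5 were higher and 5 lower on PB, with Inmt, an indolamine methyltransferase, at -3.71 ± 0.543 (13.1-fold lower).

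Drug and bile acid transporters went both ways. Abcc3, an export pump for glucuronides and bile acids, read -4.84, -5.83, -5.22 and -6.80 in the CAR KO PB group, against -1.74, -1.58, -1.67 and -1.73 in the SD PB group, and 2 of the CAR KO PB arrays were well above background. The groups lay far apart, with a difference of -3.99 ± 0.331 (adjusted p = 5.2e-07, and -1.60 after normexp correction), and the difference between diets was called (adjusted p = 0.00375). On control diet no array of either model was well above background. Slc22a8, an organic anion transporter, read 1.45, 3.23, 4.25 and 3.19 on the CAR KO PB arrays against 4.96, 5.29, 4.87 and 5.58 (-2.15 ± 0.474, adjusted p = 0.00241). In all 5 of 21 transporters were lower and 4 higher on PB (42.9% called, near the share of all genes), and the higher count was 2 without CAR KO PB replicate 3 or SD PB replicate 1 or 3, and 0 with all 30 arrays in the fit. On control diet 3 of 20 were lower and 3 higher.

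Retinoid, stress and hormone genes were among those lower on PB with a difference between diets. Cyp26a1, which degrades retinoic acid, read -2.64, -2.90, -2.46 and -3.19 on the CAR KO PB arrays and -0.74, -0.23, -0.30 and 0.24 on the SD PB arrays. It was 5.82-fold lower on PB (-2.54 ± 0.234, adjusted p = 1.53e-06), and the control-diet difference was -0.10 ± 0.235. Gadd45b, a stress gene known to act with CAR in mouse liver, read -1.97, -1.73, -1.88 and -2.13 against 0.75, 1.06, 0.56 and 0.36. The groups did not overlap on PB (-2.61 ± 0.203, adjusted p = 2.49e-07) and differed by -0.37 ± 0.204 on control diet (adjusted p = 0.178). Stc1, encoding the hormone stanniocalcin, was well above background on 3 of 4 SD PB arrays and on no CAR KO PB array, and was at least 3.64-fold lower (adjusted p = 2.07e-06). It passed the filter on dim probes for the PB test only through the SD PB arrays. The normexp difference of Stc1 on PB was -0.54, smaller in size than its bound, and its difference between diets was not called there (adjusted p = 0.0945). The difference between diets was not called with all 30 arrays in the fit for Por, Ephx1, Cyp26a1 or Gadd45b (adjusted p = 0.734, 0.262, 0.222 and 0.222).

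**Figure D2:**
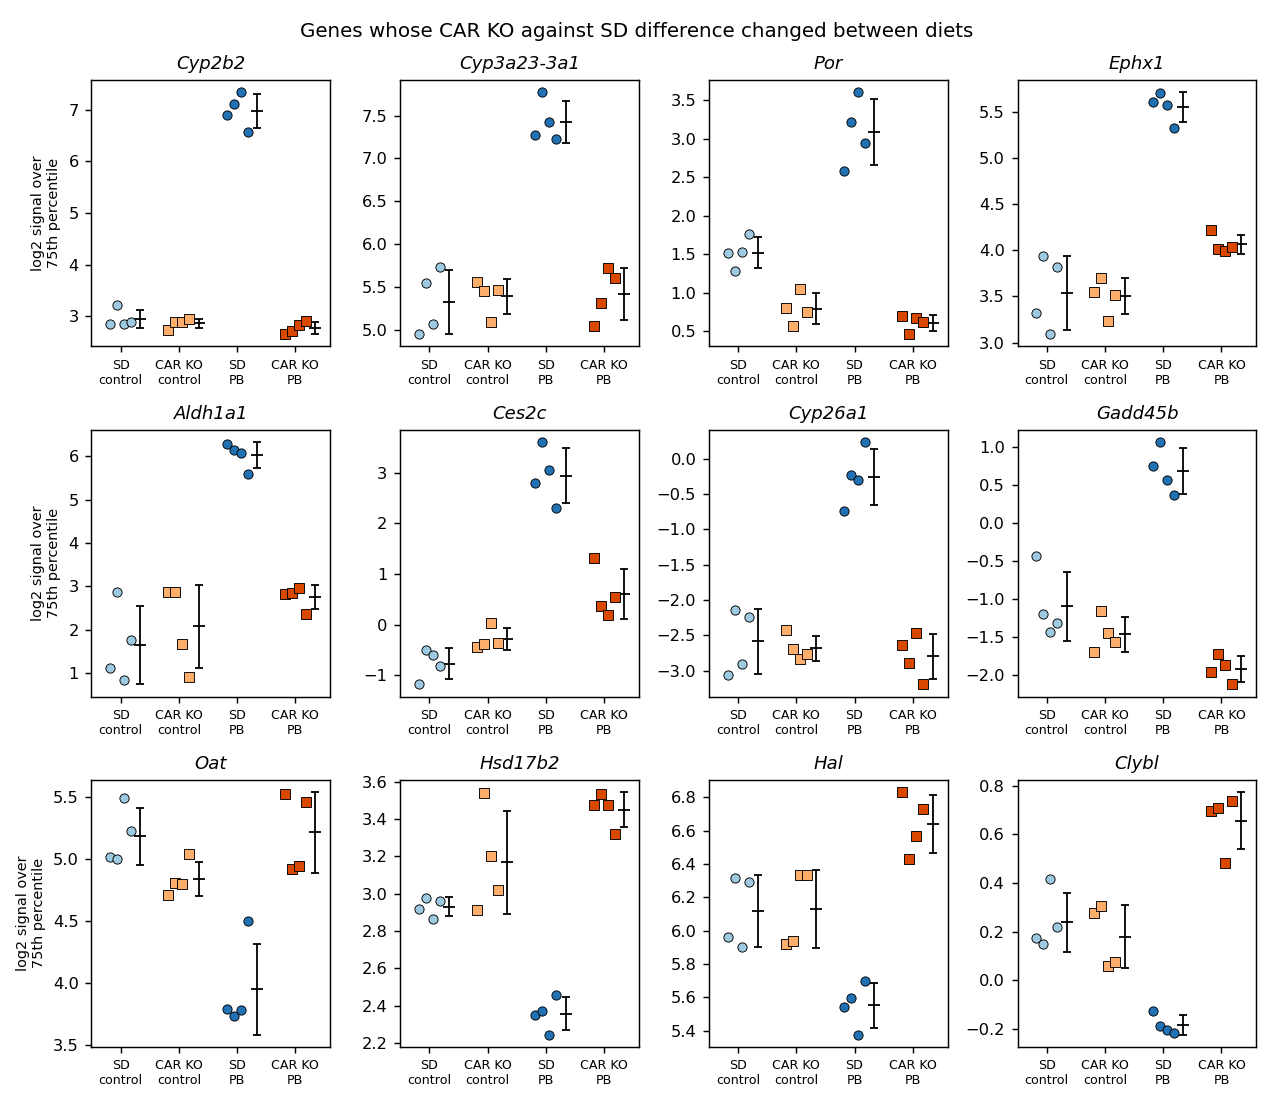
Log2 level over the array's 75th percentile on each of the 16 rat arrays for 12 genes called on PB, all called in the difference between diets (circles, SD; squares, CAR KO; bars, mean and SD of 4 arrays). For the first 8 genes the SD PB arrays stand above the other 3 groups, as for Cyp2b2 at 6.56 to 7.35, and for the last 4 they stand below them, as for Clybl at -0.22 to -0.13.

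In 17 genes and unnamed transcripts the difference on PB and the difference between diets were both higher in CAR KO. Among them were mitochondrial and amino acid enzymes. Oat, the ornithine aminotransferase of pericentral hepatocytes, read 5.53, 4.92, 4.95 and 5.46 on the CAR KO PB arrays and 3.79, 3.73, 3.78 and 4.50 on the SD PB arrays. It was 2.41-fold higher on PB (1.27 ± 0.186, adjusted p = 0.00011) and differed by -0.34 ± 0.187 on control diet (adjusted p = 0.172). Hal, which starts histidine breakdown, read 6.83, 6.43, 6.57 and 6.73 against 5.54, 5.60, 5.38 and 5.70. Its difference was 1.09 ± 0.132 on PB and 0.01 ± 0.132 on control diet. Clybl, a mitochondrial lyase that clears citramalyl-CoA, read 0.69, 0.71, 0.48 and 0.74 against -0.13, -0.19, -0.21 and -0.22 (0.84 ± 0.0804, adjusted p = 2.17e-06).

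Hsd17b2, which inactivates estradiol and testosterone, read 3.48, 3.54, 3.48 and 3.32 on the CAR KO PB arrays against 2.35, 2.37, 2.24 and 2.46. It was 2.14-fold higher on PB (adjusted p = 2.7e-06), with no overlap, and was not called on control diet (0.24 ± 0.108, adjusted p = 0.106). The difference between diets was called (0.86 ± 0.152, adjusted p = 0.0192), but not without CAR KO control replicate 4 or CAR KO PB replicate 2 (adjusted p of 0.0502 and 0.0504). Cpne4, encoding the calcium-binding protein copine 4, was well above background on no SD PB array and on all 4 CAR KO PB arrays. It was at least 5.15-fold higher (adjusted p = 6.46e-06), while its normexp difference was 0.59, smaller than that bound. Smaller differences on PB were those of the kinase gene Dyrk2 (0.74), the kynurenine monooxygenase Kmo (0.60), C1h19orf12 (0.56) and the lysosomal transport gene Rilp (0.52). Lrrc26, a potassium channel subunit, was higher by 0.77 on PB and by 1.42 on control diet. For Kmo, C1h19orf12 and Lrrc26 the difference between diets was lost on leaving out any of 14, 13 and 7 arrays (adjusted p up to 0.102). For Rilp it was lost without SD control replicate 3 or SD PB replicate 1 (0.0534 and 0.0501). A second probe of Dyrk2 differed by 0.39 on PB, and the mean of its probes was not called in the difference between diets (adjusted p = 0.0546). That difference was not called with all 30 arrays in the fit for Oat (adjusted p = 0.124), Hal (0.183), Clybl (0.358), Dyrk2 (0.851), Hsd17b2 (1.0), Kmo (0.783), C1h19orf12 (0.58), Lrrc26 (1.0), Rilp (0.71) or Cpne4 (0.0897). Hsd17b2 also lost its PB call in that fit (adjusted p = 0.316).

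Sex-biased liver genes differed between the models, although all animals were male. In rats the pattern of growth hormone secretion sets many of these genes. A1bg, a plasma protein gene expressed mainly in female rat liver, read 2.08, 0.47, -1.33 and -0.21 on the CAR KO PB arrays and -6.76, -6.70, -4.64 and -5.38 on the SD PB arrays, of which 1 was well above background. The difference was 6.12 ± 0.916 (adjusted p = 0.000129) on PB and 2.66 ± 0.92 (adjusted p = 0.0378) on control diet. Both sizes rest in part on SD signals near background, and after normexp correction they were 3.15 on PB and 1.09 on control diet, where the call was lost (adjusted p = 0.121). Prlr, the prolactin receptor, read 1.49, 1.46, 0.73 and 0.90 against -4.82, -3.98, -4.54 and -1.66, with 2 SD PB arrays well above background (4.89 ± 0.825, adjusted p = 0.000334, and 3.29 after normexp correction). Cyp2c12, the classic female-specific P450 of rat liver, read 6.07, 5.59, 4.33 and 5.46 against 2.02, 1.52, 0.53 and 1.51. It was 15.6-fold higher on PB (3.97 ± 0.526, adjusted p = 4.61e-05), and differed by 1.46 ± 0.528 on control diet (adjusted p = 0.0457). The hydroxysteroid sulfotransferase Sult2a1 read 6.92, 6.74, 6.81 and 6.69 against 4.45, 4.09, 4.22 and 5.19 (2.30 ± 0.259, adjusted p = 1.04e-05). In each of these 4 genes all CAR KO PB arrays lay above all SD PB arrays.

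Akr1b7, an aldo-keto reductase, varied widely within its group. It read 3.65, -0.57, -2.95 and 1.0 on the CAR KO PB arrays and was well above background on no SD PB array, at least 67.7-fold higher (adjusted p = 0.00205). After normexp correction its PB difference was 3.40 (adjusted p = 0.0108), smaller than that bound, so the bound depends on the background correction. On control diet its difference was 3.64 and was not called (adjusted p = 0.0711). Of 15 genes listed as female-predominant, 7 were higher (46.7%) and 3 lower (20.0%) on PB, against 16.9% and 25.1% of all genes. Their median difference was 0.92, and 66.7% were called. On control diet 4 were higher and 3 lower of 14, with a median of 0.70. The 3 lower on PB were Abcc3, Cyp2d4 and Cyp2a1, and 1 was lower with all 30 arrays in the fit. In the difference between diets the adjusted p was 0.28 for A1bg, 0.363 for Prlr, 0.166 for Cyp2c12 and 0.133 for Sult2a1. The control-diet calls of A1bg, Prlr and Cyp2c12 were lost on leaving out any of 4, 10 and 8 arrays, with adjusted p of 0.0534 to 0.14, and that of Sult2a1 was lost with all 30 arrays in the fit (adjusted p = 0.202).

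Genes expressed mainly in males gave more lower than higher calls, as did all genes tested. Cyp2c11, Cyp2c13, Cyp2a2, Cyp3a2 and Cyp3a18 stand both in this list and in that of CAR- and PXR-responsive P450 genes, as do Cyp2c7 and Cyp2a1 of the female-predominant list. The counts of these lists are therefore not independent. Cyp2c11, the main male-specific P450 of rat liver, read 6.64, 6.89, 7.19 and 7.41 on the CAR KO PB arrays and 8.71, 8.65, 8.85 and 8.32 on the SD PB arrays. The groups did not overlap, and the difference was -1.60 ± 0.214 (3.04-fold lower, adjusted p = 4.88e-05), against -0.57 on control diet (adjusted p = 0.0549). Of 19 male-predominant genes 10 were lower (52.6%) and 3 higher (15.8%) on PB (median -0.30), against 25.1% and 16.9% of all genes. On control diet 4 were lower and 2 higher (median -0.22). The members higher on PB were Hsd17b2, Srd5a2, a steroid reductase (0.66), and Slco1a1, an organic anion carrier (0.24), and 0 were higher with all 30 arrays in the fit. The count of 10 was 6 without CAR KO PB replicate 1, 6 with all 30 arrays in the fit and 5 after quantile normalization. Among 20 genes of growth hormone, IGF and thyroid hormone handling, 4 were higher and 2 lower on PB, with a median of 0.21. The share called, 30%, lay below the 42.1% of all genes. The higher count was 2 without CAR KO PB replicate 2 or 3 and 0 with all 30 arrays, and the lower count 0 without CAR KO PB replicate 1 or 2 or SD PB replicate 1 or 3.

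**Figure D3:**
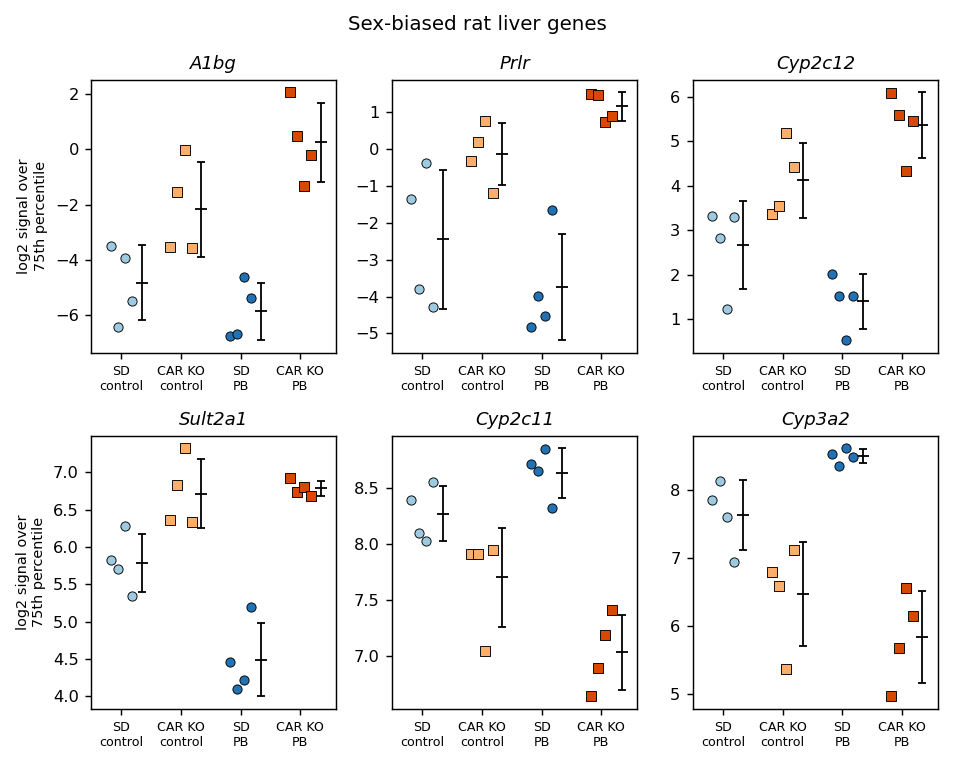
Log2 level over the array's 75th percentile on each of the 16 rat arrays for 4 female-predominant genes (A1bg, Prlr, Cyp2c12 and Sult2a1) and 2 male-predominant genes, Cyp2c11 and Cyp3a2 (circles, SD; squares, CAR KO; bars, mean and SD of 4 arrays). On PB the groups do not overlap in any panel, and Cyp2c12 reads 4.33 to 6.07 on CAR KO PB arrays and 0.53 to 2.02 on SD PB arrays.

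Most replication and mitosis genes tested were lower in CAR KO livers on PB. Of 34, 24 were lower (70.6%) and 1 higher, against 25.1% and 16.9% of all genes, with a median difference of -0.61. On control diet 4 of 36 were lower and 0 higher, with a median of -0.06. Rrm2, which makes deoxynucleotides, read -1.47, -2.13, -0.98 and 0.48 on the CAR KO PB arrays and 1.47, 1.03, 0.57 and 0.73 on the SD PB arrays. Its difference was -1.97 ± 0.612 (adjusted p = 0.0184), and the adjusted p was 0.058 without CAR KO PB replicate 2. The call was also lost with all 30 arrays (0.157), and a second probe was well above background on only 1 of 4 arrays of each PB group. The mitotic kinase gene Cdk1 read -3.13, -3.29, -2.85 and -1.43 against -0.67, -0.98, -1.65 and -1.15 (-1.57 ± 0.452, adjusted p = 0.0125). CAR KO PB replicate 4 was the highest of its group for both genes, and for Cdk1 it lay within the SD range. The G1 cyclin gene Ccnd1 differed by 0.02 ± 0.234 (adjusted p = 0.958). The member that was higher was Cdc25b, a phosphatase (0.77, adjusted p = 0.0406), whose call was lost on leaving out any of 6 arrays (adjusted p of 0.0582 to 0.119). The difference between diets was called for 1 of 36 (lower). With all 30 arrays in the fit the PB count was 11 lower, where 9.02% of all genes were lower.

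Most cholesterol synthesis genes tested were lower in CAR KO livers on PB. Of 26, 16 were lower (61.5%) and 0 higher on PB (median -0.63), against 25.1% and 16.9% of all genes. On control diet 2 were lower and 1 higher (median 0.04). Msmo1, a sterol demethylase, read 4.82, 5.40, 5.45 and 4.76 on the CAR KO PB arrays and 6.77, 6.15, 7.18 and 6.96 on the SD PB arrays (-1.66 ± 0.2, adjusted p = 1.96e-05). Hmgcs1, which makes the precursor of mevalonate, read 5.28, 6.08, 6.17 and 5.22 against 7.13, 6.39, 7.61 and 7.39 (-1.44 ± 0.267, adjusted p = 0.000683). Neither gene's groups overlapped. The difference between diets was called for 0 of the 26 genes, with an adjusted p of 0.0667 for Msmo1 and 0.235 for Hmgcs1. The PB count was 11 lower with all 30 arrays in the fit, where 9.02% of all genes were lower.

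In lipogenesis (39.1%), PPAR-alpha (38.5%), bile acid (35.3%) and glucose (34.8%) lists the share called on PB lay near or below the 42.1% of all genes. Of 23 lipogenesis genes 5 were higher and 4 lower on PB (median 0.19). Scd, the stearoyl-CoA desaturase, read 6.98, 6.21, 5.75 and 7.43 on the CAR KO PB arrays and 3.98, 5.09, 3.99 and 2.59 on the SD PB arrays (2.68 ± 0.687, adjusted p = 0.00629). PPAR-alpha and fatty acid oxidation genes gave 9 higher and 6 lower of 39 (median 0.10), with the hormone gene Fgf21 at 1.70 ± 0.327 (0.73 after normexp correction) and Cyp4a3, a fatty acid hydroxylase, at 1.31 ± 0.212. Quantile normalization called 14 of them higher, and 5 were higher and 2 lower with all 30 arrays in the fit. Cyp7a1, the rate-limiting enzyme of bile acid synthesis, read -0.47, -3.34, -2.07 and -1.91 against 0.32, -0.35, -0.69 and 0.36. The groups overlapped, and the call (-1.86 ± 0.617, adjusted p = 0.026) was lost without CAR KO PB replicate 2 or 3 or SD PB replicate 1 or 4 (adjusted p of 0.0522 to 0.082) and with all 30 arrays in the fit (0.107). Of 17 bile acid genes 5 were lower and 1 higher, 2 lower without CAR KO PB replicate 3, and 0 lower with all 30 arrays in the fit. Glucose metabolism gave 4 higher and 4 lower of 23, with Pfkfb1, the liver regulator of glycolysis, at -1.53 ± 0.172, and 2 each way with all 30 arrays in the fit. On control diet 5 of the 23 glucose genes were lower and 2 higher.

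Amino acid, urea cycle and periportal enzymes gave 6 higher and 9 lower of 24 on PB and 0 higher and 9 lower on control diet. Over all genes 16.9% were higher and 25.1% lower on PB, and 14.4% and 19.7% on control diet. Phgdh, the first enzyme of serine synthesis, was lower on both diets (-2.05 ± 0.219 on PB, -1.48 on control diet), as was Asns, the asparagine synthetase (-1.28 and -1.19). Aldh1b1, a mitochondrial aldehyde dehydrogenase, was higher on PB (1.44 ± 0.303, adjusted p = 0.00175) and stood at 0.25 on control diet (adjusted p = 0.556). On PB the list gave 2 higher and 4 lower with all 30 arrays in the fit. Pericentral and Wnt-responsive genes gave 8 lower and 1 higher of 13 on PB (median -0.52) and 6 lower and 0 higher of 14 on control diet (median -0.43). Rhbg, an ammonia transporter of pericentral hepatocytes, read -3.24, -3.70, -2.01 and -2.46 on the CAR KO PB arrays and -0.04, -0.27, -0.68 and -0.79 on the SD PB arrays (-2.41 ± 0.317, adjusted p = 4.27e-05). On control diet Rhbg differed by -0.98 (adjusted p = 0.0282), a call lost on leaving out any of 3 arrays. The member that was higher was Oat, described above. The count of 8 was 5 without CAR KO PB replicate 2 or SD PB replicate 4, and 5 with all 30 arrays in the fit.

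Stress and immune lists were read against the 25.1% of all genes that were lower on PB, or 9.02% with all 30 arrays in the fit. Of 23 NRF2-responsive genes 9 were lower and 3 higher on PB (median -0.26), with Gsr, the glutathione reductase, at -1.23 ± 0.118 and the thioredoxin reductase Txnrd1 at -0.84. The lower count was 3 with all 30 arrays, where Txnrd1 was not called (adjusted p = 0.105). On control diet Gsr differed by -0.35 (adjusted p = 0.035) and Txnrd1 by -0.72 (adjusted p = 0.000264). Among the 3 higher was Gclm, a subunit of the enzyme that starts glutathione synthesis, which was well above background on no SD array and was at least 1.77-fold higher on PB. Its PB call was lost after normexp correction (0.13, adjusted p = 0.118). Unfolded protein and ATF4 response genes gave 10 lower and 2 higher of 24 on PB and 9 lower and 1 higher on control diet, with medians of -0.32 and -0.33, and 4 lower on PB with all 30 arrays. Hsp90b1, an endoplasmic reticulum chaperone, differed by -1.10 on PB and -0.79 on control diet. Acute phase genes gave 14 lower and 1 higher of 30, 9 lower without CAR KO PB replicate 4 and 3 lower with all 30 arrays. Heat shock chaperones gave 9 lower and 1 higher of 17, 5 lower without SD PB replicate 2 and 1 lower with all 30 arrays. On control diet 11 of 30 acute phase genes were lower and 0 higher. Of 17 chaperones 6 were lower and 1 higher there, against 19.7% lower and 14.4% higher of all genes. Interferon-responsive genes gave 12 lower and 3 higher of 32 on PB (median -0.21) against 3 lower and 0 higher of 33 on control diet (median -0.16). The antiviral gene Oas1a differed by -2.21 ± 0.452 on PB, and the difference between diets was called for 0 of 33. The lower count on PB was 6 with all 30 arrays.

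Of the other lists, AhR-responsive genes gave 2 lower of 5, the aryl hydrocarbon receptor gene Ahr itself at -1.92 ± 0.227, and 1 lower without SD PB replicate 1 or 4. MHC genes gave 7 lower and 0 higher of 29, 3 lower with all 30 arrays, and 3 higher without SD control replicate 2. The circadian clock gave 4 lower and 2 higher of 12 (1 each way with all 30 arrays), and growth arrest and early growth genes 4 higher and 2 lower of 28, the higher count being 2 without SD PB replicate 1. Metal and iron handling gave 4 lower and 1 higher of 17, with the transferrin receptor gene Tfrc at -1.58 ± 0.156. Fetal and preneoplastic liver genes gave 1 higher (Igf2, 0.81) and 1 lower (Aldh1a1) of 8. The shares called in the metal and iron (29.4%), MHC (24.1%), growth arrest (21.4%) and fetal (25%) lists lay below the 42.1% of all genes. They were 40% for AhR-responsive and 50% for circadian clock genes.

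**Figure D4:**
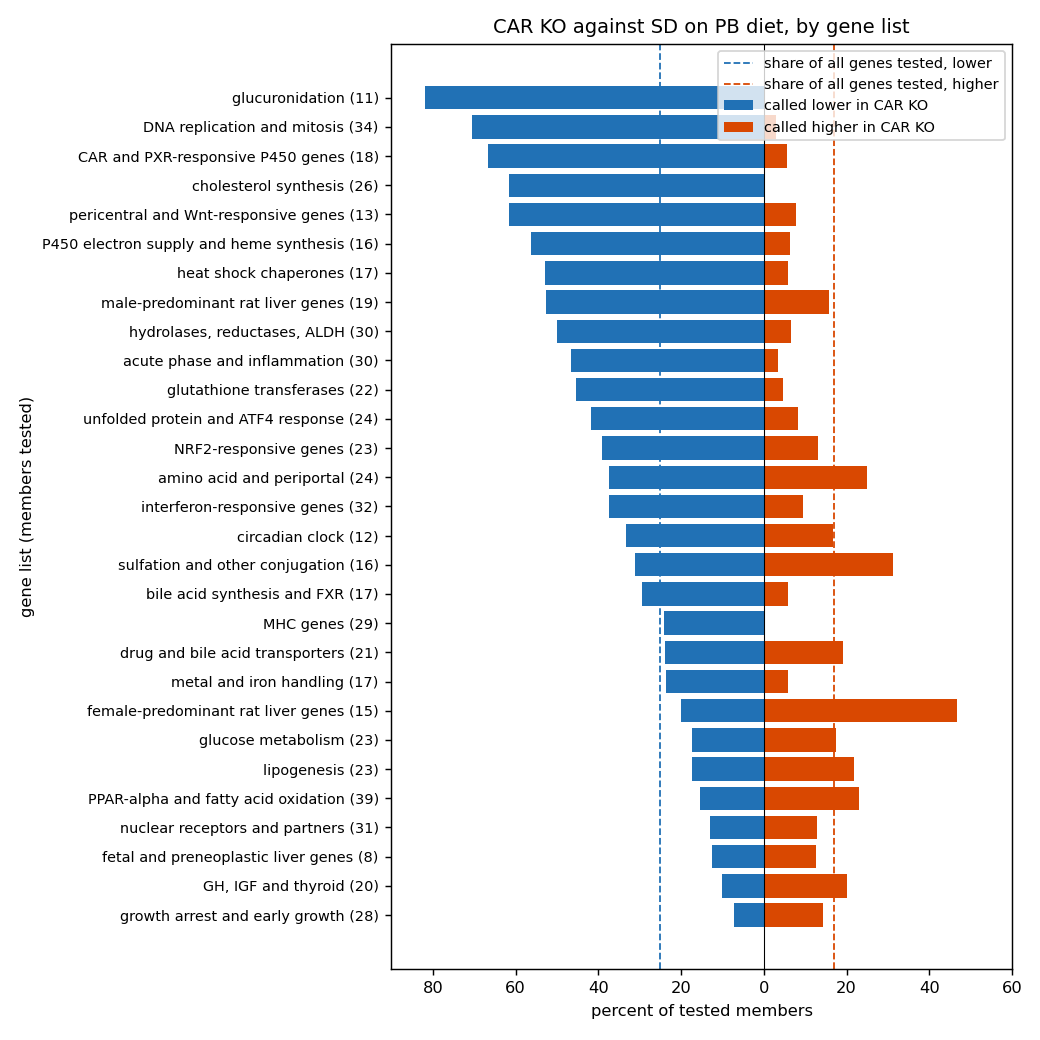
Percent of tested members called lower (blue, to the left) and higher (orange, to the right) in CAR KO than in SD on PB for the 29 gene lists with at least 8 members tested, whose number stands in brackets. Dashed lines mark the shares over all genes tested, 25.1% lower and 16.9% higher, and glucuronidation (9 of 11) and DNA replication and mitosis (24 of 34) have the largest lower shares.

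Markers of liver cell types were compared as lists, against 25.1% lower, 16.9% higher and 42.1% called of all genes on PB. The shares called were 11.8% for hepatocyte, 10% for endothelial, 25% for T, NK and B cell and 28.6% for cholangiocyte markers, all below that of all genes. They were 40% for stellate cell, 47.1% for macrophage and 50% for erythroid markers. In whole liver RNA, fewer cells of a type and less RNA per cell cannot be told apart. Hepatocyte markers gave 2 lower and 0 higher of 17 on PB and 10 lower on control diet. On PB their summed level was 11.98 to 12.16 on CAR KO PB arrays and 12.18 to 12.21 on SD PB arrays, without overlap. On control diet it was 12.06 to 12.16 on CAR KO arrays and 12.28 to 12.35 on SD arrays, also without overlap. Macrophage and Kupffer cell markers gave 7 lower and 1 higher of 17 (median -0.60), with the complement receptor gene Vsig4 at -0.98 ± 0.176. The counts were 4 lower and 0 higher with all 30 arrays, and the higher count was 0 without CAR KO PB replicate 2 or SD PB replicate 2 or 4. Their summed level was 6.11 to 6.77 on CAR KO PB arrays and 6.91 to 7.13 on SD PB arrays, which do not overlap, and 6.40 to 7.03 against 6.89 to 7.11 on control diet. On control diet 4 of 17 macrophage markers were lower and 0 higher, and Vsig4 differed by -0.64 (adjusted p = 0.0119). Erythroid markers gave 4 higher and 0 lower of 8 (median 0.93), with summed levels of 8.79 to 9.86 against 8.23 to 9.20, and the count of 4 was 1 without CAR KO PB replicate 1, 2 or 4 or SD PB replicate 2. Stellate cell and fibroblast markers gave 5 lower and 1 higher of 15, 3 lower without CAR KO PB replicate 1, and 2 lower with all 30 arrays. On control diet 6 of 16 stellate markers were lower and 1 higher. Endothelial markers gave 1 lower of 10, cholangiocyte markers 1 higher and 1 lower of 7, and T, NK and B cell markers 2 higher and 1 lower of 12. The 4 neutrophil markers tested had a median difference of 0.49, 2 of them were called higher without CAR KO PB replicate 4 or SD control replicate 2, and Elane, Mmp8 and Ngp were well above background on no PB array. The part of macrophage and blood cells in the immune and replication lists was not tested.

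Several large differences on PB were of like size on control diet. Pcyox1l, a gene related to prenylcysteine oxidase, read 0.99, 0.66, 0.98 and 0.59 on the CAR KO PB arrays and -2.33, -1.99, -2.03 and -1.88 on the SD PB arrays. Its difference was 2.86 ± 0.161 on PB (adjusted p = 6.95e-09) and 2.69 ± 0.161 on control diet (adjusted p = 1.28e-08). A second probe of the gene was well above background on no PB array, and the mean of both probes differed by 1.21 on PB. Oxnad1, an oxidoreductase gene, read -1.71, -1.63, -1.62 and -1.58 on CAR KO PB arrays and was well above background on 1 of 4 SD PB arrays (3.56 ± 0.364 on PB, 3.34 ± 0.366 on control diet). Id3, an inhibitor of helix-loop-helix transcription factors, read -1.46, -1.05, -0.68 and -0.85 against -3.39, -3.73, -2.69 and -3.76 (2.38 ± 0.263 on PB, 2.26 ± 0.264 on control diet). The homeobox gene Hoxd12 (2.93 and 2.38, 1 of 4 SD PB arrays well above background), the actin gene Acta1 (at least 3.82-fold on PB) and Raver2 (at least 6.04-fold on PB) were higher on both diets as well. After normexp correction the PB differences were smaller, 1.38 for Oxnad1, 1.33 for Id3, 0.96 for Hoxd12, 0.35 for Acta1 and 0.83 for Raver2, and all 5 were still called. Those of Acta1 and Raver2 were smaller than the bounds given.

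Genes lower on both diets included retinoid, transporter and ketone body genes. Rdh16, a retinol dehydrogenase, read -0.69, -0.47, -0.14 and -0.06 on the CAR KO PB arrays and 2.68, 2.26, 2.93 and 2.72 on the SD PB arrays. It was 7.93-fold lower on PB (-2.99 ± 0.253, adjusted p = 6.38e-07) and differed by -2.01 ± 0.254 on control diet, and a second probe gave -3.33 and -1.57. The glutamate transporter gene Slc1a6 was well above background on no CAR KO array and was at least 9.61-fold lower on PB and 5.4-fold on control diet. Its normexp difference on PB was -1.25, smaller in size than that bound. The cytochrome gene Cyp4f5 (-1.86 and -1.69) and the osteopontin gene Spp1 (-1.89 and -1.89, 2 of 4 CAR KO arrays well above background on each diet) followed the same pattern. For Spp1 the control-diet call was lost without CAR KO control replicate 3 or 4 (adjusted p = 0.0502 and 0.0508), and its PB difference was -0.62 after normexp correction.

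Acat1, a mitochondrial thiolase of ketone body metabolism, fell into separate levels among the CAR KO animals. It read 0.84, -0.88, -0.88 and 1.07 on the CAR KO PB arrays and -0.89, 1.10, 0.81 and -1.02 on the CAR KO control arrays, against 1.68 to 1.80 on SD PB arrays and 1.78 to 2.11 on SD control arrays. On each diet 2 CAR KO arrays lay near 1 and 2 near -0.9, with none between, and all lay below the SD arrays. Whether the probe binds the transcripts of all CAR KO animals alike was not tested, so these levels may not measure expression alone. The difference was -1.69 ± 0.503 on PB (adjusted p = 0.0146) and -1.88 ± 0.506 on control diet (adjusted p = 0.0106).

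**Figure D5:**
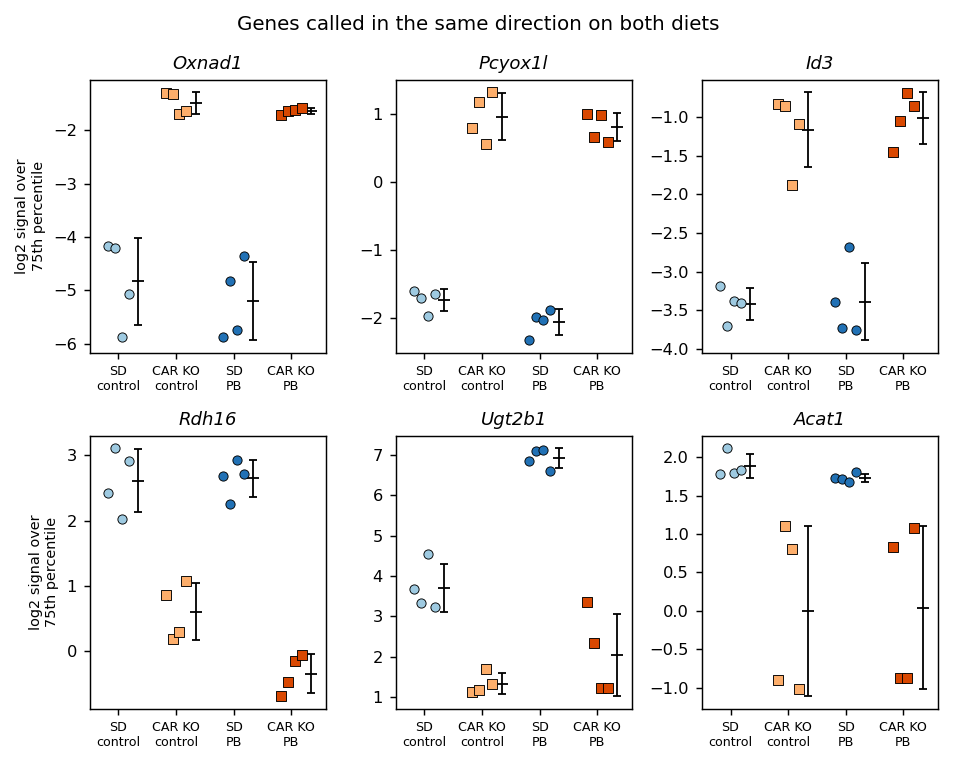
Log2 level over the array's 75th percentile on each of the 16 rat arrays for 6 genes called in the same direction on both diets (circles, SD; squares, CAR KO; bars, mean and SD of 4 arrays). The models stand apart on both diets in each panel, and the Acat1 panel shows 2 CAR KO arrays near 1 and 2 near -0.9 on each diet.

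Only 12 of the 16494 genes tested on both diets were called in opposite directions, 4 higher on PB and lower on control diet and 8 the reverse. Slc17a2, a phosphate transporter gene, read -0.39, -0.15, -0.38 and -0.40 on the CAR KO PB arrays and -0.81, -0.77, -0.76 and -0.79 on the SD PB arrays. The CAR KO PB array at -0.15 lay apart from the others of its group. Slc17a2 was higher by 0.45 ± 0.0724 on PB (adjusted p = 0.00022) and differed by -0.30 ± 0.073 on control diet (adjusted p = 0.00616). With all 30 arrays in the fit neither was called (adjusted p = 0.272 and 0.545), nor was the difference between diets (1.0). The NMDA receptor subunit gene Grin2c (-0.91 on PB, 0.50 on control diet), the sterol synthesis scaffold gene Erg28 (-0.29, 0.33) and Spmap2l (-0.76, 0.44) went the other way. Gnmt, the glycine methyltransferase of methionine metabolism, was higher on PB (0.35) and lower on control diet (-0.31). The calls on at least 1 of the diets were lost on leaving out 1 array for Grin2c, Erg28, Spmap2l and Gnmt, with adjusted p of 0.0513 to 0.134.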

How the data were processed

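Liver RNA was labelled with Cy3 for 1-colour Agilent arrays, per the labels' protocols. The deposited intensity column used is gProcessedSignal, from which the scanner software had taken background array by array without scaling arrays to each other, per the file headers. The deposited series matrix holds log2 values (correlation 1 with log2 processed signal) and served as an alternative. From 62976 spots, 4259 control spots were left out and spots of a probe averaged, giving 30367 probes. Log2 signal minus each array's 75th percentile was used. RefSeq accessions named 18004 probes (15170 symbols). Of several probes per symbol the brightest was used, which left 26912 entries, named or not. Testing required a signal well above background on 75% or more of the arrays of a compared group. A gene could thus enter only through the group where it is bright, as did Stc1, Abcc3, Cyp2b21, Akr1b7 and Cpne4 on PB. Their adjusted p compares that group with signals at or near background and is not independent of the filter. Differences came from limma 3.58.1 in R 4.3.3 (lmFit, eBayes, 16 rat arrays, no covariate, 12 residual degrees of freedom) with Benjamini-Hochberg adjustment over all genes tested. The limma script was tested on simulated data. The number of arrays limits the precision.

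Errors of levels are SDs and of differences standard errors. Where no array of a group measured a gene, its level there is a bound, and "at least" folds set the dim group at the higher of its own signal and the lowest signal well above background on each array. These folds are bounds for the processed signal only. After normexp correction the PB differences of Cpne4, Stc1, Slc1a6, Raver2, Acta1, Gclm and Akr1b7 were smaller than them. The members and gene lists were chosen with earlier results of these data known. Named genes are the 15 highest and 15 lowest non-overlapping calls on PB, 10 each way called also in the difference between diets, 10 each way called on both diets, up to 6 called in opposite directions, 2 each way per list and a fixed set, and list members printed as exceptions were chosen after their values were seen. Alternatives were another background correction, scaling, probe choice, filter, spread estimate and set of arrays, leaving out each array, and a replicate block. Promoter windows are RefSeq's (GRCr8). Figures were drawn with matplotlib 3.10.9. Results for some genes are not reported here.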

Additional observations from a re-analysis of the deposited data

Results flagged for a closer look

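For 33 of the genes with values given per array, each PB group of 4 arrays was searched for an array far from the others. Of 66 groups 2 held one, where chance gives about 1 in 20. Other genes with such values, among them Slc17a2, were not searched. Oat read 4.50 on SD PB replicate 4, above the 3 others of its group. Clybl read 0.48 on CAR KO PB replicate 3, below the 3 others of its group.

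The CAR KO against SD difference itself differed between the diets for the genes named by that rule, by the direct test. On PB minus control diet, the log2 difference was -4.12 for Cyp2b2, -3.70 for Aldh1a1, -2.83 for Ces2c, -2.44 for Cyp26a1, -2.24 for Gadd45b, -2.07 for Cyp3a23-3a1, -1.75 for Por and -0.65 for Lrrc26. It was 1.61 for Oat, 1.07 for Hal, 0.90 for Clybl, 0.86 for Hsd17b2, 0.66 for Rilp, 0.65 for C1h19orf12, 0.60 for Kmo and 0.45 for Dyrk2. For Cyp2b21, Abcc3, Stc1 and Cpne4 a group held no measured array, so only the adjusted p is given, 0.000677, 0.00375, 0.00375 and 0.0185 (limma).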

How the results depend on the processing

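The counts of calls stayed within 1.5 times those given under every alternative except with all 30 arrays in the fit, where 2925 genes were called on PB (2895 shared), 2120 on control diet (2098 shared) and 39 in the difference between diets (35 shared). Leaving out each array in turn gave 6229 to 7073 genes on PB, 4944 to 6182 on control diet and 64 to 110 in the difference between diets. With the replicate number as a block the counts were 6727, 5711 and 65. The numbers do not pair the arrays, since same-numbered CAR KO and SD PB arrays deviated together by correlations of only 0.05, -0.06, -0.03 and 0.02. The share of higher calls on control diet, 42.2%, was 66.1% with all 30 arrays and 27.5% after normexp correction. Of 160 named genes called on PB, 53 lost the call under at least 1 alternative other than leaving out an array and 30 on leaving out at least 1 array. For the difference between diets these were 23 and 9 of 29. After normexp correction Gsto2 on PB turned to -0.0559 (adjusted p = 0.599) and Spmap2l on control diet to -0.049 (adjusted p = 0.619), and the cause was not tested. The slide as a block was not run, since it coincides with the model. Signal over background limits what dim genes can show.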
